A study of Mus musculus with 4 samples.

Results

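The replication-dependent histone genes encode the bulk of the histones that package new DNA in S phase: the linker histone H1 and the core histones H2A, H2B, H3 and H4, with 2 copies of each core histone in a nucleosome. They were taken here as every symbol that begins with Hist1h, Hist2h, Hist3h or Hist4h. This gave 68 of the 23235 gene symbols in the data: 6 for H1, 18 for H2A, 19 for H2B, 12 for H3 and 13 for H4. The samples were mouse androgenetic haploid embryonic stem cells (AG-haESCs, line HG165), cells that carry a single set of chromosomes of paternal origin. RNA was sequenced from 2 samples treated with the solvent DMSO and from 2 treated with RDF, a mixture of Repsox (an inhibitor of TGF-β signalling), DMH1 (an inhibitor of BMP signalling) and Forskolin (an activator of adenylate cyclase). All of them belong to a single line. The methods list the assays that used feeder cells, and RNA sequencing is not among them. The doses, the time of treatment and the share of cells that were still haploid are not given for these samples in the sources used here. Nothing in the sources says that the replicates came from separate cultures, so the p-values below measure the spread between these samples, which may be technical.

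Most animal mRNAs end in a poly(A) tail. Replication-dependent histone mRNAs usually do not: their 3′ end is a short stem-loop, bound by the stem-loop binding protein SLBP and cut with the help of the U7 small nuclear RNA, and the mRNAs are made and degraded in step with DNA synthesis. Some of these genes also have a poly(A) signal downstream of the stem-loop and can give polyadenylated transcripts. The libraries were made with a stranded mRNA kit that begins with an mRNA isolation step, so the levels below are those of the histone transcripts that this step kept.

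The stem-loop is shown for the genes on which the results turn, each with 5 bases on either side and with the 16 bases of the stem-loop in capitals. They were read from the reference genome of the build that the data use (mm9, NCBIM37) and lie on the strand of the gene.
Hist1h1c: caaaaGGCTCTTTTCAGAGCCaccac
Hist1h2bc: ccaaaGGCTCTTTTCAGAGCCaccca
Hist3h2a: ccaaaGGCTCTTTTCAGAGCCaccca
Hist3h2ba: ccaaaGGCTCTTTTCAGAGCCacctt
Hist1h4i: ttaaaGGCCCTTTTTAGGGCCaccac
Hist1h4j: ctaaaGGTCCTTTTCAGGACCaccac
The search was for 16 bases that begin with GG and end with CC, with a 6-base stem and a loop that starts with TT, in the 200 bases after the stop codon. It found a stem-loop in 59 of the 66 histone genes with an annotated stop codon and in 22 of 20124 other genes, or 0.109%. The sequence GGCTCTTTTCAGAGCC stood in 37 of them, in the classes H1, H2A, H2B and H3. In contrast, all 12 H4 genes with a stem-loop had another stem: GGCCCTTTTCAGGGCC in 8, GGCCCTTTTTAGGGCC in 2 and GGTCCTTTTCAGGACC in 2. Of the genes that could be tested below, Hist1h3g, Hist1h4a and Hist2h2bb had no such letters in this window.

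Histone genes took up a small part of the libraries. Their summed level was 129.2 and 147.4 FPKM with DMSO (fragments per kilobase, scaled to the number of mapped fragments) and with RDF 109.0 and 116.2 FPKM, which is between 0.0151% and 0.0193% of all FPKM. Of the 68 genes, 10 were listed at 0 in all 4 samples, 37 were above 0 with a mean under 1 FPKM, 16 had a mean between 1 and 5 FPKM and 5 reached at least 5 FPKM. These 5 were Hist1h4i (H4), Hist1h1c (H1), Hist1h2bc and Hist3h2ba (H2B) and Hist3h2a (H2A), and they held between 64.8% and 67.6% of the summed level in each sample. The 21 genes that averaged 1 FPKM or more were tested on the log2(FPKM + 1) scale with limma. A filter on the mean keeps genes by their level in both groups together, and fold changes on this scale understate those of low genes.

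The 5 genes with the highest levels all had a transcript in the GENCODE annotation that ends near a poly(A) signal. The letters AATAAA or ATTAAA stood in the last 40 bases of the annotated transcript of 17 histone genes, compared with 68.6% of other genes. These 5 genes were among the 17. The annotated end lay 839 bases past the stem-loop in Hist1h1c, 150 in Hist1h4i, 1487 in Hist3h2a and 166 in Hist3h2ba. In Hist1h2bc it lay 7826 bases away along the genome, in a second exon. None of the 51 genes without such a signal had a mean above 3.36 FPKM, and the median of the mean levels was 0.820 FPKM with the signal and 0.483 FPKM without it. Not every gene with the signal was high: 4 of the 17 genes were listed at 0 in all samples and 8 of the 17 reached 1 FPKM. In RefSeq, Hist1h1c, Hist1h4i, Hist3h2a and Hist3h2ba have a single, shorter transcript, of 725, 403, 508 and 462 bases. Their GENCODE transcripts have 1560, 537, 1990 and 620 bases. The poly(A) signal was not looked for at the RefSeq ends. The levels above are over all 4 samples, given as a description with no test, and annotated ends may differ from those used in these cells.

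**Figure D1:**
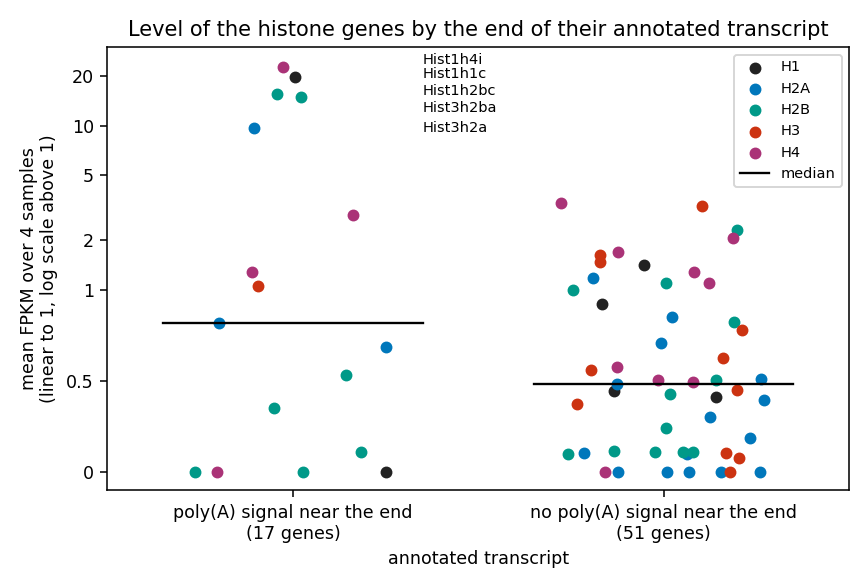
Mean FPKM over the 4 samples (vertical axis, linear up to 1 and logarithmic above) of the 17 histone genes with and the 51 without a poly(A) signal in the last 40 bases of the GENCODE transcript, each point a gene coloured by class and each line a median. The 5 genes at or above 5 FPKM all lie in the left group, and the right group ends at 3.36 FPKM.

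Of the 21 histone genes tested, 5 fell with RDF (limma, adjusted p under 0.05): Hist1h1c, Hist3h2a, Hist3h2ba, Hist1h4a and Hist1h4j. That is 23.8% of them, set against 8.28% of all 11733 genes tested that fell. Of other genes with a transcript of up to 1000 bases, 10.3% fell. Between 1 and 5 FPKM, 12.5% of 16 histone genes fell, compared with 10% of 190 other genes of up to 1000 bases. Of the 5 histone genes of at least 5 FPKM, 3 (60%) fell. When only genes of at least 5 FPKM were tested, 780 of 7972 genes fell, with the same 3 histone genes among them. None of the 21 rose by this test, whereas 13.3% of all genes tested rose. By transcript end, 4 of the 8 tested genes with a poly(A) signal near the annotated end fell: Hist1h1c, Hist3h2a, Hist3h2ba and Hist1h4a. Of the 13 tested genes without it, 1 fell, Hist1h4j. All 5 genes of at least 5 FPKM have the signal, and this split was not tested. Without the adjustment, 8 of the 21 genes were lower and 1 was higher at a p under 0.05. The median difference (RDF minus DMSO) was -0.29 on the log2(FPKM + 1) scale over the 21 genes and 0.026 over all genes tested, and 15 of the 21 differences were negative. In bulk RNA, fewer cells in the phase or state that expresses these genes cannot be told apart from less histone RNA per cell. By flow cytometry, the paper reported a larger share of S-phase cells with RDF in lines that include the one sequenced here. The cell cycle of the sequenced samples themselves was not tested here.

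All of these calls needed both RDF samples. When RDF replicate 1 or RDF replicate 2 was left out, the remaining RDF sample was assumed to vary like the DMSO samples, and none of the 5 calls was kept. The same fits called far fewer genes of any kind: 358 higher and 235 lower without RDF replicate 1, and 253 higher and 195 lower without RDF replicate 2, against 1561 and 972 with all samples (1275 and 1234 after removal of a trend on transcript length and GC content, which left the 5 histone calls as they were). Without DMSO replicate 1, 4 of the 5 calls were kept, and without DMSO replicate 2, 3 were kept.

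The distance between replicates was large for many of these genes. The larger of the 2 replicate differences (DMSO 1 against 2, RDF 1 against 2) had a median of 0.46 over the 21 histone genes and 0.14 over all genes tested, both on the log2(FPKM + 1) scale. In the range of 1 to 5 FPKM it was 0.66 over 16 histone genes and 0.46 over the 190 other genes with a transcript of up to 1000 bases. The difference between the groups was larger than both replicate differences in 10 of the 21 genes, compared with 54.5% of all genes tested. Both RDF samples lay below both DMSO samples in 8 genes, where 28.5% of all genes tested did so, and above them in 3 genes, where 37.1% did so. In the other 10 genes the samples of the groups overlapped.

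**Figure D2:**
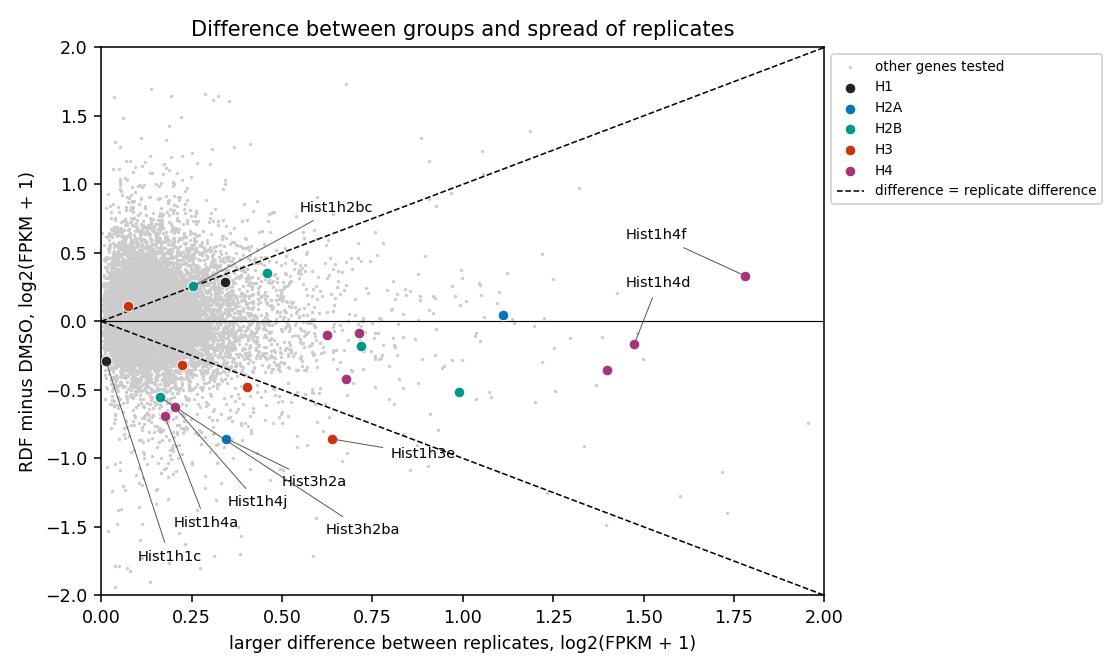
Difference between the groups (vertical axis, RDF minus DMSO) against the larger difference between replicates (horizontal axis), both in log2(FPKM + 1), for the 21 histone genes coloured by class and for the other genes tested in grey, with 41 grey genes outside the axes. Points above the upper or below the lower dashed line differ between groups by more than between replicates; Hist1h1c, Hist3h2a, Hist3h2ba, Hist1h4a and Hist1h4j lie below the lower line, and Hist1h4f and Hist1h4d lie far to the right between the lines.

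The linker histone H1 binds the DNA between nucleosomes. Hist1h1c (H1.2; chr13:23830676-23832235, plus strand, a single exon) held most of the H1 level. Its level was 21.8 and 21.6 FPKM with DMSO and 17.7 and 17.5 FPKM with RDF. The replicates lay very close to each other and the groups did not overlap. Hist1h1c fell by 0.29 on the log2 scale (SE 0.059, adjusted p = 0.0212 by limma), although its adjusted p lay between 0.0640 and 0.107 when any of the 4 samples was left out. Hist1h1a, the other H1 gene tested, was at 1.09 and 1.24 FPKM with DMSO and at 1.98 and 1.35 FPKM with RDF, and this difference did not pass the test (log2 0.29, SE 0.15, adjusted p = 0.206). The summed level of the 6 H1 genes was 25.3 and 24.9 FPKM with DMSO and 20.9 and 20.3 FPKM with RDF. Without Hist1h1c, the sums of the other 5 genes were 3.48 and 3.32 FPKM with DMSO and 3.18 and 2.81 FPKM with RDF.

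Among the H2A genes, Hist3h2a (chr11:58768187-58770176, plus strand, a single exon) was the only one above 5 FPKM. It was at 11.1 and 14.4 FPKM with DMSO and at 6.12 and 7.02 FPKM with RDF. The lower DMSO sample was thus still well above the higher RDF sample. Hist3h2a fell by 0.86 on the log2 scale (SE 0.13, adjusted p = 0.0090 by limma), and its adjusted p was 0.0736 without RDF replicate 1 and 0.0598 without RDF replicate 2. With its RefSeq length, these values stand for no more than about 133 fragments in the DMSO samples together and 79 in the RDF samples together, which gives a ratio of RDF to DMSO of 0.507 with a 95% counting interval from 0.379 to 0.675. Intervals of this kind cover counting error only. They were computed from these upper bounds and would be wider with fewer fragments. Hist1h2ak, the other H2A gene tested, was at 0.433 and 1.82 FPKM with DMSO and at 2.06 and 0.413 FPKM with RDF, so that its replicates lay farther apart than its groups. The 18 H2A genes summed to 18.2 and 21.6 FPKM with DMSO and to 11.9 and 12.3 FPKM with RDF. The 17 genes other than Hist3h2a summed to 7.06 and 7.17 FPKM with DMSO and to 5.81 and 5.25 FPKM with RDF.

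The H2B genes did not move together. Hist3h2ba (chr11:58762413-58763032, plus strand, a single exon), a neighbour of Hist3h2a, was at 16.8 and 19.0 FPKM with DMSO and at 12.4 and 11.3 FPKM with RDF. Hist3h2ba fell by 0.56 on the log2 scale (SE 0.086, adjusted p = 0.0094 by limma), with an adjusted p of 0.0526 without RDF replicate 1 and 0.0755 without RDF replicate 2. Its ratio of RDF to DMSO was 0.662, with a 95% counting interval from 0.523 to 0.836. In contrast, Hist1h2bc (chr13:23776068-23784357, plus strand, 2 exons) was at 15.4 and 12.8 FPKM with DMSO and at 16.7 and 17.3 FPKM with RDF. Both RDF samples were above both DMSO samples, but the difference missed the threshold (log2 0.25, SE 0.096, adjusted p = 0.109). Without DMSO replicate 1 its adjusted p was 0.0350, with RDF again the higher group. Hist2h2bb, which has no stem-loop in the searched window, was at 1.18 and 1.21 FPKM with DMSO and at 1.49 and 0.512 FPKM with RDF. The 19 H2B genes summed to 39.8 and 39.7 FPKM with DMSO and to 35.9 and 38.2 FPKM with RDF. Without Hist1h2bc and Hist3h2ba, the other 17 summed to 7.51 and 7.88 FPKM with DMSO and to 6.75 and 9.70 FPKM with RDF, so the groups then overlapped.

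The 3 genes of the Hist3 cluster on chromosome 11 (Hist3h2a, Hist3h2ba and the pseudogene Hist3h2bb-ps) summed to 28.7 and 34.0 FPKM with DMSO and to 19.2 and 18.3 FPKM with RDF. The 54 genes of the Hist1 cluster on chromosome 13 summed to 95.8 and 109.0 FPKM with DMSO and to 85.7 and 93.8 FPKM with RDF. The log2 ratio of the group means (RDF over DMSO) was -0.74 for the Hist3 cluster and -0.19 for the Hist1 cluster, and this contrast was noticed in the data and not tested. As the genes that fell in the Hist3 cluster lie close together, their promoters are shown, from 250 bases before to 50 after the RefSeq start of the gene (GRCm38.p6, a later build than that of the data). Capitals mark matches on either strand to the TATA box (TATAAA), the CCAAT box (CCAAT) and the octamer (ATTTGCAT), bound by Oct factors. The first lies at chr11:58954435-58954734 and the second at chr11:58948661-58948960, both on the plus strand.
Hist3h2a: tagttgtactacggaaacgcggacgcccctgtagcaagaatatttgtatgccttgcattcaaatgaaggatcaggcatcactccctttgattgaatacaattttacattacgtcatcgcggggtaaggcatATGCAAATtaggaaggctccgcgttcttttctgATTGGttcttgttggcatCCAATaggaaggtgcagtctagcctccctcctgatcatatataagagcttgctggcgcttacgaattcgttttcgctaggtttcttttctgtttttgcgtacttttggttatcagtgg
Hist3h2ba: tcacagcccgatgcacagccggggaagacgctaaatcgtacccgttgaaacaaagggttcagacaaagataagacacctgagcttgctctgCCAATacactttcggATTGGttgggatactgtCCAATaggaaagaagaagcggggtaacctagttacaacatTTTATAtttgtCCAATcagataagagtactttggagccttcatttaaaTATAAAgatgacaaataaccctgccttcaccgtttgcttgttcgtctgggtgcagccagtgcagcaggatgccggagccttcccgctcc
Both promoters hold CCAAT, the first also the octamer and the second also TATAAA. Of the 61 histone genes with a promoter in the RefSeq table, 52 held CCAAT and 35 held TATAAA, compared with 37.4% and 13.6% of all 32851 promoters of the same length. CCAAT was found in every H1, H2A, H2B and H3 promoter searched, and in 3 of 12 for H4. The octamer was found in 7 of 17 H2A and 7 of 16 H2B promoters and in no promoter of the other classes, compared with 1.74% of all promoters.

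Histones H3 and H4 form the tetramer at the core of the nucleosome. No H3 gene passed the test, yet the summed level of the class lay lower in both RDF samples. Its 12 genes summed to 12.4 and 13.1 FPKM with DMSO and to 8.18 and 7.67 FPKM with RDF. Hist1h3c was at 3.67 and 3.73 FPKM with DMSO and at 2.49 and 3.07 FPKM with RDF, a log2 difference of -0.32 (SE 0.11, adjusted p = 0.0896). Hist1h3g was at 2.27 and 1.82 FPKM with DMSO and at 1.51 and 0.902 FPKM with RDF, a log2 difference of -0.48 (SE 0.17, adjusted p = 0.0917). Hist1h3e, named after its values were seen because it lay nearest to the threshold, was at 1.65 and 2.69 FPKM with DMSO and at 1.15 and 0.384 FPKM with RDF. Its log2 difference was as large as that of Hist3h2a (-0.86), but its SE was 0.25 and its adjusted p 0.0582. In these 3 genes both RDF samples lay below both DMSO samples. Hist2h3c1, the fourth gene tested, was at 1.02 and 0.935 FPKM with DMSO and at 1.08 and 1.19 FPKM with RDF (log2 0.11, adjusted p = 0.520).

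The H4 class held 2 of the 5 genes that fell, and also the genes with the most uneven replicates. Hist1h4a (chr13:23852561-23853099, minus strand, a single exon) was at 3.46 and 4.03 FPKM with DMSO and at 1.93 and 1.94 FPKM with RDF. Hist1h4a fell by 0.69 on the log2 scale (SE 0.11, adjusted p = 0.0092 by limma), with an adjusted p of 0.0672 without RDF replicate 1 and 0.0708 without RDF replicate 2. Hist1h4j (chr13:21826903-21827329, plus strand, a single exon) was at 1.36 and 1.72 FPKM with DMSO and at 0.640 and 0.644 FPKM with RDF. Hist1h4j fell by 0.63 on the log2 scale (SE 0.13, adjusted p = 0.0200 by limma), but its adjusted p was 0.0624 without DMSO replicate 2, 0.0991 without RDF replicate 1 and 0.104 without RDF replicate 2. The depth behind Hist1h4j was very low. Its values stand for no more than about 13 fragments with DMSO and 6 with RDF, and the 95% counting interval of the ratio, from 0.123 to 1.11, includes 1. That of Hist1h4a, with at most about 35 and 21 fragments, ran from 0.283 to 0.905. As these are upper bounds, both intervals are too narrow if the true fragments were fewer.

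Hist1h4i (chr13:22132685-22133221, minus strand) had the highest mean of all 68 genes. It was at 18.5 and 29.0 FPKM with DMSO and at 20.7 and 22.5 FPKM with RDF, so that both RDF samples lay between the DMSO samples (log2 -0.099, SE 0.19, adjusted p = 0.735). Without DMSO replicate 1 it was called lower (log2 -0.41, adjusted p = 0.0275), and without DMSO replicate 2 its direction turned (log2 0.21, adjusted p = 0.167). Hist1h4d was at 3.60 and 3.08 FPKM with DMSO and at 1.32 and 5.44 FPKM with RDF. Hist1h4f had the largest replicate difference of the 21 genes, being listed at 0 in DMSO replicate 1 and at 2.43 FPKM in DMSO replicate 2, with 1.32 and 1.35 FPKM in the RDF samples. It was called in opposite directions without DMSO replicate 1 (log2 -0.56, adjusted p = 0.0423) and without DMSO replicate 2 (log2 1.22, adjusted p = 0.0052). Hist1h4h, at 1.03 and 2.25 FPKM with DMSO and at 0.625 and 1.26 FPKM with RDF, overlapped as well. The 13 H4 genes summed to 33.5 and 48.1 FPKM with DMSO and to 32.1 and 37.7 FPKM with RDF, and here the groups overlapped.

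**Figure D3:**
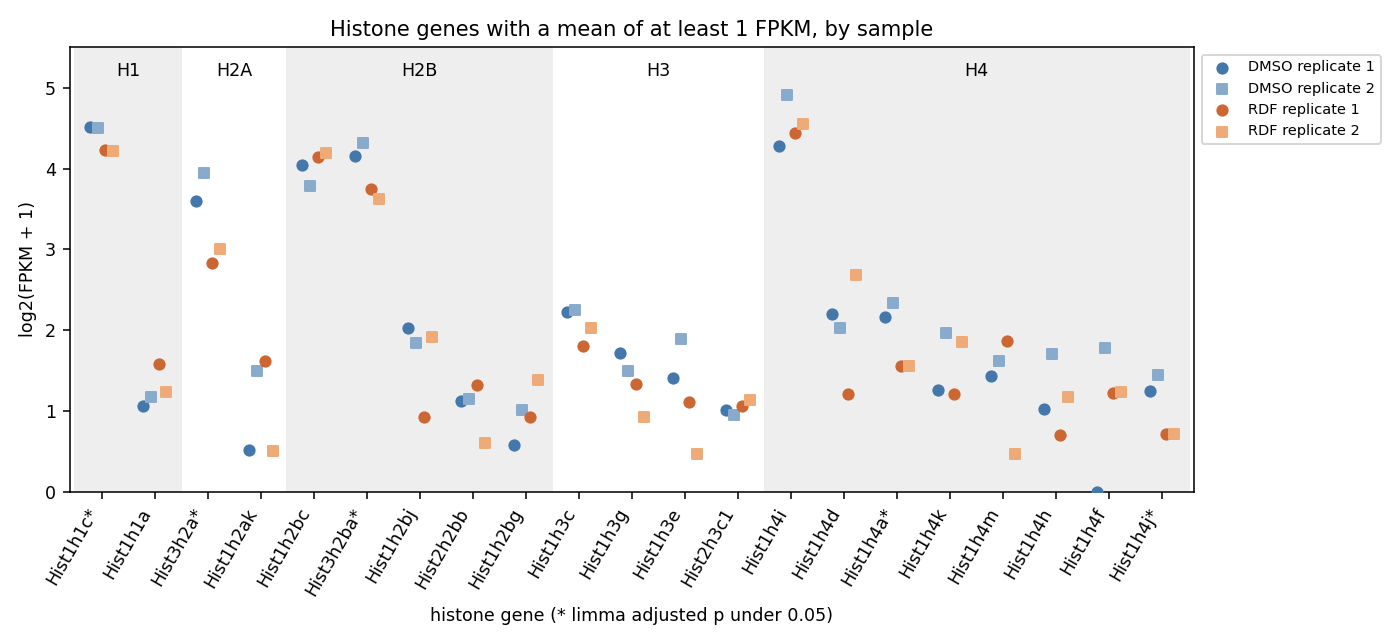
Level of the 21 histone genes that averaged 1 FPKM or more, in each of the 4 samples, as log2(FPKM + 1), ordered by class and by mean level, with an asterisk on the 5 genes with an adjusted p under 0.05. In Hist1h1c, Hist3h2a and Hist3h2ba both RDF points lie below both DMSO points, in Hist1h2bc they lie above them, and in Hist1h4i they lie between them.

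The sums by class separated the groups in H1, H2A, H2B and H3 but not in H4. The log2 ratio of the group means was -0.29 for H1, -0.72 for H2A, -0.10 for H2B, -0.69 for H3 and -0.23 for H4. No class sum was tested, since the smallest two-sided p of an exact permutation test with 2 samples a group is 0.333. The median difference of the genes tested was 0.00076 for H1 (2 genes), -0.40 for H2A (2 genes), -0.18 for H2B (5 genes), -0.40 for H3 (4 genes) and -0.26 for H4 (8 genes), on the log2(FPKM + 1) scale.

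**Figure D4:**
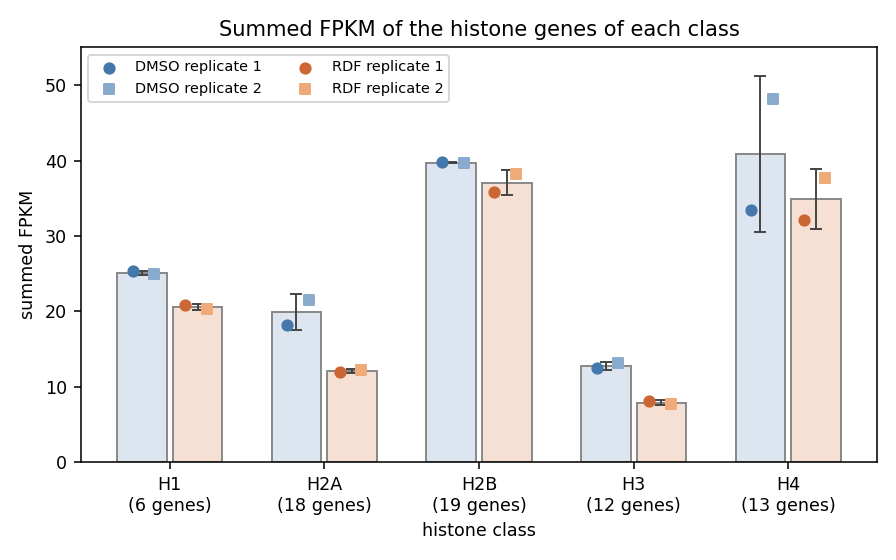
Summed FPKM of all histone genes of each class in each sample (points), with the mean of the 2 samples of a group (bars) and its SD (error bars). Both RDF sums lie below both DMSO sums in H1, H2A, H2B and H3, by the smallest margin in H2B, and the groups overlap in H4.

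Near-identical copies limit what can be said of single genes in these classes. As a measure, the share of 50-base stretches of a gene's transcript that also occur in another gene had a median of 2.16% in H1, 60.4% in H2A, 48.5% in H2B, 49.5% in H3 and 43.0% in H4. Fragments from such stretches may have been divided between copies by the authors' programs. A level of 0 may therefore not mean that a gene was silent. Of the 10 genes at 0 in all samples, Hist2h2aa1, Hist2h2aa2 and Hist1h2bq shared 100% and Hist1h2br 97.8%. In contrast, Hist1h1t shared 0%, Hist2h4 1.03% and Hist1h2aa 2.35%, and the rest lay between. Hist1h1c (8.54%) and Hist3h2ba (0%) shared little or nothing, whereas Hist3h2a shared 34.0%, Hist1h4a 40.4% and Hist1h4j 47.1%. The median share was 34.0% in the genes with a poly(A) signal near the annotated end and 49.7% in those without it. The groups whose levels were described above thus also differed in sharing. Shares were taken over the longest GENCODE transcript, so a long end past the stem-loop can lower them. In Hist1h1c this end made up 839 of 1560 bases and in Hist3h2a 1487 of 1990 bases. Shares of the transcript up to the stem-loop alone were not computed and may be higher. The values of Hist3h2a, Hist1h4a and Hist1h4j, and of the H4 genes with uneven replicates, are therefore uncertain in how they divide between genes.

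The 37 histone genes above 0 with a mean under 1 FPKM were not tested. They summed to 18.1 and 15.1 FPKM with DMSO and to 12.0 and 14.8 FPKM with RDF, a log2 ratio of -0.30. Both RDF samples were below both DMSO samples in 5 of them and above in 2, where 18% and 19.5% of all 6279 symbols in this range were. Of the 5, 3 were listed at 0 in both RDF samples and above 0 in both DMSO samples, as were 2.15% of the symbols in this range. These were Hist1h2af at 0.845 and 0.355 FPKM, Hist1h3d at 0.826 and 1.67 FPKM and Hist2h2ac at 0.407 and 0.335 FPKM, named after their values were seen. With no filter on the mean, Hist1h3d and Hist2h2ac also had an adjusted p under 0.05 by limma, and the 5 calls above were kept. The calls of Hist1h3d and Hist2h2ac rest on very few fragments. In DMSO replicates 1 and 2 these were at most 3.88 and 9.24 for Hist1h3d and 1.78 and 1.73 for Hist2h2ac.

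In the list of factors linked to histone gene transcription, 4 of 11 genes rose and 1 fell, with a median of 0.24. Over all genes tested, 13.3% rose and 8.28% fell, and the counts of the lists below are to be read against these shares. As the lists were chosen with earlier results of these data known, their counts are a description and cannot show an excess. Npat, the coactivator that cyclin E and CDK2 act on at histone genes, was at 5.33 and 5.45 FPKM with DMSO and at 9.70 and 11.0 FPKM with RDF (log2 0.83, SE 0.088, adjusted p = 0.0033). Npat kept its call when any sample was left out. Casp8ap2 (FLASH), which works with NPAT and in the cleavage of histone mRNA, was at 5.29 and 4.69 FPKM with DMSO and at 7.63 and 7.22 FPKM with RDF (log2 0.49, adjusted p = 0.0151). Coil, the scaffold of Cajal bodies, rose from 13.97 and 14.9 FPKM to 21.2 and 20.3 FPKM, and Yy1, a zinc finger factor, from 44.2 and 38.5 FPKM to 68.5 and 56.2 FPKM. Ccne2 (cyclin E2) fell from 5.65 and 5.40 FPKM to 4.13 and 4.04 FPKM (log2 -0.36, adjusted p = 0.0320). Without a single sample in turn, between 1 and 4 of the 4 rises kept their call, fewest without RDF replicate 1, and the fall of Ccne2 never did.

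In the list of histone mRNA processing and decay, 2 of 23 genes rose, none fell, and the median was -0.0036, so that no more genes were called than over all genes tested. Slbp, which encodes the stem-loop binding protein itself, was at 67.1 and 67.2 FPKM with DMSO and at 79.1 and 76.4 FPKM with RDF (log2 0.21, SE 0.052, adjusted p = 0.0374). Dis3l2, a 3′ to 5′ exonuclease, was at 7.57 and 5.79 FPKM with DMSO and at 10.4 and 11.1 FPKM with RDF (log2 0.62, adjusted p = 0.0186). Both calls were lost without either RDF sample, and that of Slbp also without either DMSO sample.

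The S-phase list, 24 genes that act in DNA replication or are switched on at its start, had a median of -0.0071, with 3 genes higher and 1 lower, no larger shares than over all genes tested. With median-ratio scaling, 0 were higher and 2 were lower. Cdt1, which loads the replicative helicase, was at 185.6 and 179.9 FPKM with DMSO and at 208.8 and 216.3 FPKM with RDF (log2 0.22, adjusted p = 0.0372). Rrm2, a subunit of ribonucleotide reductase, was at 218.2 and 222.4 FPKM with DMSO and at 247.5 and 258.1 FPKM with RDF (log2 0.20, adjusted p = 0.0494). Slbp and Ccne2, which stand in this list as well, were the other 2. None of these 4 calls was kept when any of the 4 samples was left out.

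Histone variants that are not tied to replication, or not wholly so, moved in both directions. Of 11 genes, 3 rose and 2 fell, with a median of -0.061. The macroH2A genes H2afy and H2afy2 were higher with RDF, H2afy at 94.2 and 92.1 against 136.2 and 129.6 FPKM (log2 0.51, adjusted p = 0.0034) and H2afy2 at 18.7 and 17.3 against 23.9 and 24.5 FPKM (log2 0.41, adjusted p = 0.0106). H2afx, whose protein is phosphorylated at DNA breaks and whose gene gives both a stem-loop and a polyadenylated transcript, was higher as well (131.4 and 142.7 against 177.9 and 171.6 FPKM). H1fx, a replication-independent H1, was lower (64.0 and 59.6 against 43.9 and 35.2 FPKM, log2 -0.64, adjusted p = 0.0116). H3f3b, which encodes H3.3 and is named here after its values were seen, was also lower (372.0 and 421.0 against 320.6 and 328.8 FPKM, log2 -0.28, adjusted p = 0.0420). Without RDF replicate 1, 2 of these 5 calls were kept, and without RDF replicate 2, 1 was kept, that of H2afy.

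Of 24 histone chaperones and importers, 3 rose and 2 fell, with a median of 0.021. Atrx, which deposits H3.3 at repeats with DAXX, was at 13.3 and 13.1 FPKM with DMSO and at 20.9 and 20.98 FPKM with RDF (log2 0.62, SE 0.061, adjusted p = 0.0027) and kept its call without any single sample. Ubn1, a subunit of the HIRA complex, was at 5.91 and 5.54 against 8.51 and 8.85 FPKM, and Hjurp, the chaperone of the centromeric H3, at 1.60 and 1.79 against 2.55 and 3.00 FPKM. Ipo4, an importin that carries H3 and H4, was lower (29.1 and 28.3 against 22.5 and 22.4 FPKM), and so was Nap1l4, an H2A and H2B chaperone named after its values were seen (74.0 and 73.5 against 62.6 and 64.3 FPKM). Without either RDF sample, the call of Atrx was the only one of these 5 that was kept.

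**Figure D5:**
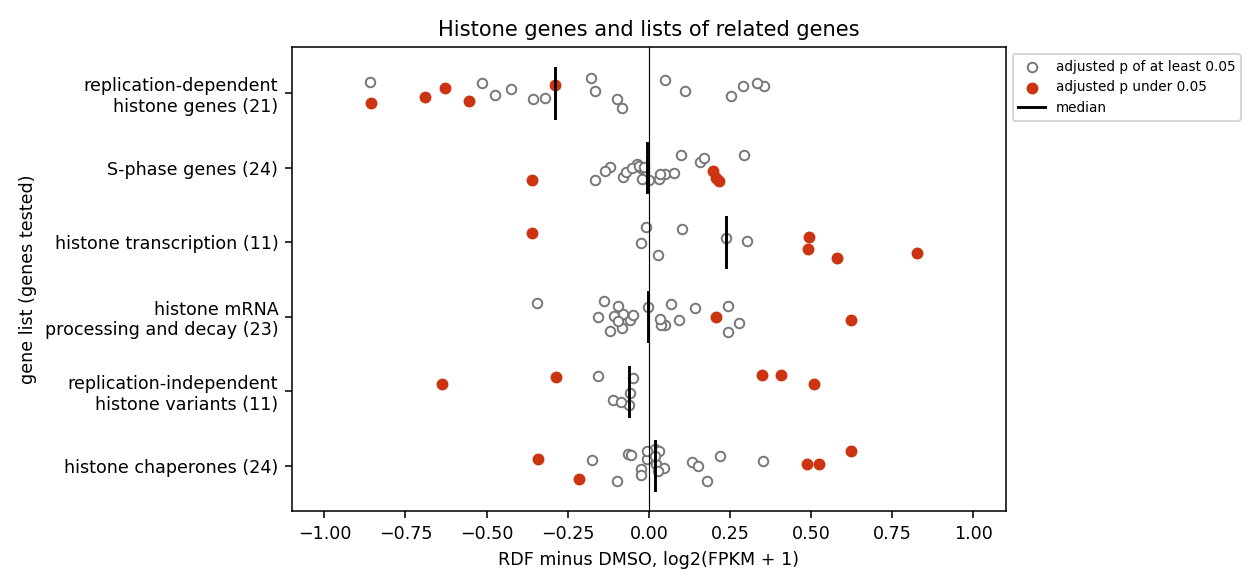
Difference between the groups (horizontal axis, RDF minus DMSO, log2(FPKM + 1)) for the genes tested of the replication-dependent histone genes and of 5 lists of related genes, each point a gene, filled where its adjusted p was under 0.05, and each vertical line a median. The 5 filled histone genes all lie left of 0, and 4 of the 5 filled genes of histone transcription lie right of it.

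Other measures moved beside these results. Among 120 symbols of other RNAs without a poly(A) tail (nearly all small nucleolar or small Cajal body RNAs), 86 were listed at 0 in all samples, 31 were tested, 4 rose and none fell. Their replicates were very uneven, with a median larger replicate difference of 1.89 on the log2(FPKM + 1) scale, and their sums were 6340 and 11119 FPKM with DMSO and 9963 and 7111 FPKM with RDF. Snora15 and Scarna8 were listed at 0 in both DMSO samples and at 722.5 and 194.8 FPKM, and at 198.6 and 110.4 FPKM, in the RDF samples. Snora64 and Rmrp rose as well, but lost their calls without either RDF sample. The sums thus overlapped between the groups, and the part that mRNA isolation had in these values or in those of the histone genes was not tested. The 10 embryonic stem cell markers were all present, with 4 higher and 4 lower, and summed to 7458 and 7413 FPKM with DMSO and to 4909 and 4409 FPKM with RDF, mostly through Dppa5a. Of the 12 feeder fibroblast markers, 10 were tested, 3 were higher and 5 lower, and they summed to 52.4 and 49.7 FPKM with DMSO and to 37.1 and 38.6 FPKM with RDF. No marker of either list was at 0 in all samples. The methods describe culture of the lines on feeder cells, and RNA sequencing is not among the assays they list as using them. Whether feeder RNA was carried over into these samples is not stated. The part of fibroblast-like RNA in the histone values was not tested.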

How the data were processed

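Total RNA (150 ng) was used by the authors for mRNA isolation and stranded library preparation, followed by Illumina sequencing. Reads were mapped to mm9, and the authors deposited 1 table of FPKM per sample. The submitters' processing notes name TopHat2 2.0.14, Bowtie2 2.1.0 and Cufflinks 2.2.1. FPKM hold no fragment counts. From the steps of low values in genes with transcripts of at least 1500 bases, libraries were estimated at 9320000 and 11000000 fragments (DMSO) and 12500000 and 11300000 fragments (RDF), although only 41.7% to 45.7% of low values came out as whole fragments (within 0.1), so these estimates are rough. A gene's fragments were bounded by FPKM × RefSeq length × depth, an upper bound if that length is right. Ratios were given exact 95% intervals from these bounds, which are too narrow if the true fragments were fewer. 

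The 11733 genes that averaged 1 FPKM or more were compared as log2(FPKM + 1) with limma 3.58.1 (lmFit, eBayes with trend) in R 4.3.3, RDF against DMSO, with Benjamini-Hochberg adjustment over all of them and a threshold of 0.05. Transcripts, stem-loops and poly(A) signals were read from the NCBIM37 genome with the GENCODE vM1 annotation. Promoters came from RefSeq.

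The members and the 8 gene lists were chosen with earlier results of these data known. Named were members past the threshold, the 2 highest of each class, members of at least 1 FPKM that run past the stem-loop to a poly(A) signal or have no stem-loop, the member with the largest replicate difference, the 4 genes of each list with the smallest adjusted p under 0.05, and Slbp, Npat and Casp8ap2. Alternatives changed the pseudocount, filter, scaling, trend, replicate block and samples.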

Additional observations from a re-analysis of the deposited data

How the results depend on the processing

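The median log2 change of the histone genes stayed negative under every alternative run, between -0.42 and -0.14, but the number of calls varied. Causes of the changes below were not tested, beyond the smaller number of genes or samples that some alternatives use. Of the histone genes, 3 were lower when only genes averaging 5 FPKM or more were tested, where 5 histone genes remain. Leaving out 1 sample gave between 1 and 7 histone genes called lower and between 0 and 1 called higher; the gene left without RDF replicate 1 was Hist1h4m and that without RDF replicate 2 was Hist1h2bj, neither called with all samples. The median of the H1 genes was -0.25 with no filter and -0.29 with a mean of at least 5 FPKM, that of the H2A genes was -0.86 with a mean of at least 5 FPKM, and that of the H3 genes was -0.58 with a pseudocount of 0.1 and -0.19 with no filter. The log2 ratio of the H1 sums was -0.32 with median-ratio scaling, which shifted the median of all genes by -0.030. Without 1 sample, the ratio ranged from -0.83 to -0.59 for the H2A sums and from -0.15 to -0.055 for the H2B sums. Without the 5 highest members, a setting added once the data had been seen, the ratio was -0.18 for H1, -0.36 for H2A and 0.096 for H2B. Median-ratio scaling gave 0 genes higher and 2 lower in the S-phase list, 1 higher and 1 lower in the list of processing and decay, and 2 higher among the other RNAs without a poly(A) tail, and it called 1333 genes higher and 1181 lower in all, against 1561 and 972. Of the named members, none called in the comparison turned direction. Others did without 1 sample: Hist1h2ak ranged from -0.51 to 0.60 (it turned without DMSO replicate 1, at -0.44, and without RDF replicate 1), Hist1h4d from -0.90 to 0.57 (turned without RDF replicate 1), Hist1h4f from -0.56 to 1.22 (turned without DMSO replicate 1), Hist1h4i from -0.41 to 0.21 (turned without DMSO replicate 2) and Hist2h2bb from -0.54 to 0.18 (turned without RDF replicate 2). With no filter, 942 genes were higher and 606 lower.

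Replicate numbers are shared between the groups in the labels, but nothing says that they mark a shared culture or day. The deviations of same-numbered samples correlated weakly over genes (Pearson's r = 0.13), and with 2 pairs this does not show pairing. With the replicate number as a block, 6 histone genes were lower (Hist1h3g in addition to the 5), and 1 of the other RNAs without a poly(A) tail was lower.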
